A study of Homo sapiens with 3 samples.

Results

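MALAT1, NEAT1, GAS5, SNHG1, SNHG5, SNHG12, SNHG15, TUG1, OIP5-AS1 and NORAD are long non-coding RNA genes, 5 of which carry small nucleolar RNAs (snoRNAs) in their introns. These 10 genes were taken by name, matched from Ensembl identifier to symbol, from the 23379 genes measured in the series, and all 10 were listed in each of the 3 libraries. RNA was sequenced from cells labelled as DU145, an established human line from a metastasis of a prostate carcinoma. P-Enter was the negative control, WT was the culture overexpressing wild-type BRAF, and L597R was the culture transfected with plasmid for the BRAF mutant of that name, and all 3 share the cell line. The labels give no time after transfection, no promoter for the plasmids and no statement of separate cultures or clones. Since each group is 1 library, differences are given without p-values and no replicate can check them.

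Long non-coding RNAs are transcripts without a long open reading frame that act as RNA or through their transcription. MALAT1 and NEAT1 stay in the nucleus, where MALAT1 is found in nuclear speckles and NEAT1 is the scaffold of paraspeckles, whereas NORAD is a cytoplasmic RNA that binds Pumilio proteins through many copies of a short element. Small nucleolar RNA host genes such as GAS5 and the SNHG genes are spliced, their introns are trimmed to snoRNAs that guide the modification of ribosomal RNA, and the spliced exons of GAS5 and other hosts are degraded by nonsense-mediated decay when they are translated.

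Several of these RNAs are known for sequence features, which are shown first. In NORAD the 8-base Pumilio element, TGTANATA on the transcribed strand with N for any base, was found 15 times in the 5339-base transcript, 10 times as TGTATATA, and overlapping matches were counted. Of 4358 GENCODE 29 transcripts within 10% of that length, 42.9% held the element at least once. A share of 0.0688%, NORAD included, held it at least 15 times, and the most in a transcript of another gene was 16. The following stretches show the 3 forms of the element, with the 8 matching bases in capitals; they lie on the minus strand of GRCh38 at chr20:36049808-36049827, chr20:36049707-36049726 and chr20:36049497-36049516.
NORAD element 2: ctactgTGTATATAgttgac
NORAD element 3: acatttTGTAAATAcctttt
NORAD element 5: atatagTGTACATAaaggac
The longest transcripts of the other genes held 6 matches in NEAT1, 2 in TUG1, 1 in OIP5-AS1 and 1 in SNHG1, and none in MALAT1, GAS5, SNHG5, SNHG12 or SNHG15. Per kilobase, NORAD had 2.81 matches and the longest NEAT1 transcript 0.264.

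**Figure D1:**
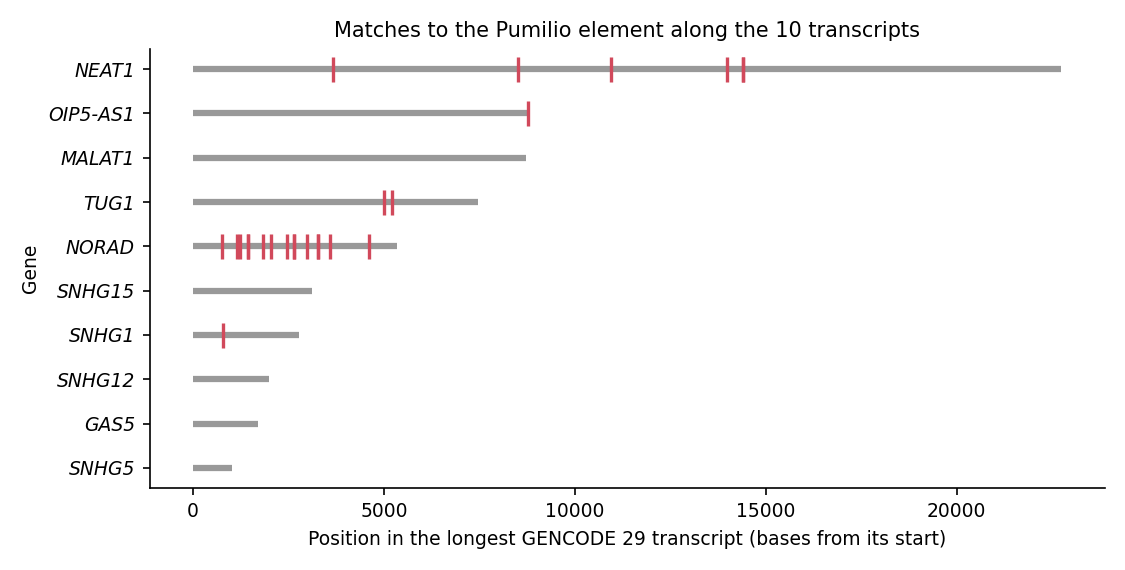
Each line is the longest GENCODE 29 transcript of a gene, drawn to scale in bases from its start, and each mark is a match to TGTANATA. The 15 matches of NORAD are spread along most of its 5339 bases, while NEAT1 has 6 over 22743 bases.

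OIP5-AS1, also known as Cyrano, is known for a site that pairs with the microRNA miR-7 far beyond the seed. The 8829-base transcript held 3 matches to the miR-7 seed complement GTCTTCC on the transcribed strand. Of 1235 transcripts of like length, 49.2% held at least 1 such match and 3.72%, OIP5-AS1 included, held at least 3. The microRNA is shown with its seed, bases 2 to 8, in capitals, and below it the site with the longest further run of complement, 14 bases, and a site with a further run of 3; capitals mark the seed match. The sites lie on the plus strand of GRCh38 at chr15:41300574-41300599 and chr15:41305854-41305879.
hsa-miR-7-5p: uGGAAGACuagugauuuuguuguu
OIP5-AS1 position 2887: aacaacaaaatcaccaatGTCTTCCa
OIP5-AS1 position 8167: atatcctgaatatagtttGTCTTCCc

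MALAT1 has no poly(A) tail of the usual kind; its end is protected by an A-rich tract that folds with upstream U-rich stretches. A run of 13 A was found at positions 8337 to 8349 of the 8708-base transcript and is in capitals below. It lies within chr11:65506038-65506130 on the plus strand of GRCh38, with 359 annotated bases after it. A run of that length or longer was present in 26.4% of 1273 transcripts of like length.
MALAT1 tract: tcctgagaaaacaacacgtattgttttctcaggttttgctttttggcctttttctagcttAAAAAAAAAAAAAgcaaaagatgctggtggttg

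Transcription of many snoRNA hosts starts with a C followed by a run of pyrimidines, the 5′ terminal oligopyrimidine motif that is shared with ribosomal protein genes. RefSeq start windows on GRCh38.p14 were held for 8 of the 10 genes, all but NEAT1 and SNHG15. A first C with at least 4 pyrimidines after it, on the transcribed strand, was present in SNHG12 and SNHG5 and in 4.07% of 35116 windows. The other hosts with a window, GAS5 and SNHG1, did not hold it at the RefSeq start. The first base of NORAD is a purine. The first 30 transcribed bases of SNHG12, SNHG5 and NORAD are shown with the opening pyrimidine run in capitals. They lie on the minus strand at chr1:28581844-28581873, chr6:85678704-85678733 and chr20:36050931-36050960.
SNHG12: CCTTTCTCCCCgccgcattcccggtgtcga
SNHG5: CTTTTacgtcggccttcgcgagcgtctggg
NORAD: agttccggtccggcagagatcgcggagaga

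The levels were FPKM, reads scaled to gene length and to the reads counted in the library, and whole reads were recovered from the values. The depth was 13294004 counted reads for P-Enter, 15665132 for WT and 16603676 for L597R. The level of BRAF itself was 1.65 (P-Enter), 4.41 (WT) and 9.59 FPKM (L597R). L597R and WT thus differ in the level of BRAF RNA as well as in the mutation, and these cannot be told apart. Of the epithelial markers, KRT18 was between 34.3 and 37.6 FPKM, CDH1 had 1, 0 and 0 reads, and EPCAM and KLK3 were not listed, while the mesenchymal filament gene VIM was between 127 and 132 FPKM. The prostate epithelial identity of the cells therefore rests on the labels. Leukocyte and endothelial markers had at most 14 reads each in any library. Intervals below are exact 95% intervals, Poisson for a level and Clopper-Pearson for a ratio of reads, and they hold counting error alone: an interval that leaves out 1 sets a pair of libraries apart, not a pair of conditions.

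NORAD was the most abundant of the 10 genes and also ranked first by mean FPKM among the 4675 listed long non-coding RNA genes of GENCODE 29. SNHG1 ranked 4 and GAS5 ranked 5 among those genes. SNHG15, MALAT1, TUG1, OIP5-AS1, SNHG12 and NEAT1 followed in that order, down to a rank of 105 for NEAT1. SNHG5 stood at rank 2236, so its listed level goes against the description of these genes as abundant. Whether the counting left out reads of SNHG5 was not tested, and its value is not read as the amount of RNA in the cells; the translation factor gene EIF4A1 was likewise listed at 0.839, 0.737 and 0.487 FPKM. The order of neighbouring levels was not fixed throughout: the intervals of TUG1 and OIP5-AS1 overlapped in all 3 libraries, those of MALAT1 and TUG1 overlapped in WT and L597R, those of SNHG1 and GAS5 overlapped in P-Enter, and those of SNHG15 and MALAT1 overlapped in L597R. The remaining neighbours were apart in every library. The 10 genes together took 0.107%, 0.109% and 0.115% of the counted reads of P-Enter, WT and L597R.

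**Figure D2:**
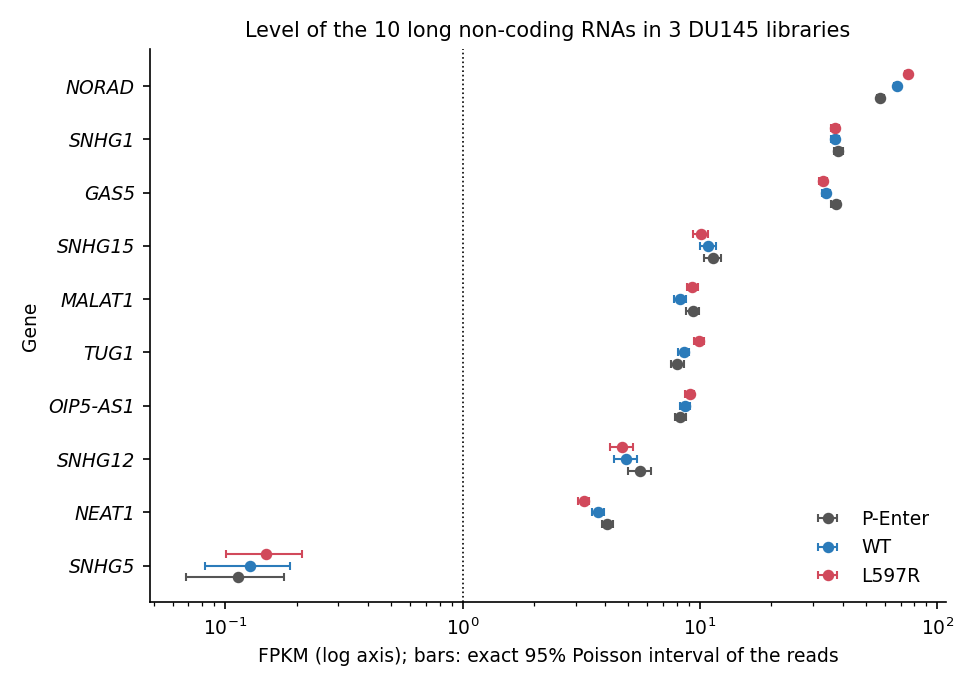
FPKM of the 10 genes on a log axis, 1 point per library, with exact 95% Poisson intervals of the reads. NORAD stands highest, between 57.6 and 75.1 FPKM, and SNHG5 stands lowest, between 0.113 and 0.148 FPKM.

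NORAD was higher in both BRAF libraries than in P-Enter and highest in L597R. NORAD (ENSG00000260032) is a single-exon gene on the minus strand of chromosome 20, bases 36045622 to 36050960. NORAD stood at 57.6 FPKM in the control, 67.3 with wild-type BRAF and 75.1 with the mutant (4133, 5696 and 6732 reads). The 3 intervals did not overlap. The read ratio, reads scaled to the counted reads of each library, was 1.17 in WT against P-Enter (1.12 to 1.22). It was 1.30 in L597R against P-Enter (1.25 to 1.36) and 1.12 in L597R against WT (1.08 to 1.16). In a bulk library fewer cells with an RNA and less of it per cell cannot be told apart. PUM2, a repressor that NORAD binds, had an L597R to P-Enter ratio of 1.23 (1.15 to 1.31).

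TUG1 and OIP5-AS1 were lowest in P-Enter and highest in L597R, the order of libraries seen for NORAD. TUG1 (ENSG00000253352), a widely expressed RNA first described in retina, maps to the plus strand of chromosome 22, bases 30969245 to 30979395. P-Enter gave 8.03 FPKM of TUG1, WT gave 8.55 and L597R gave 9.88, with 1084, 1359 and 1665 reads behind them. L597R was above both other libraries, whose intervals overlapped. The TUG1 read ratio was 1.23 in L597R against P-Enter (1.14 to 1.33) and 1.16 in L597R against WT (1.08 to 1.24), and in WT against P-Enter it was 1.06 with an interval that held 1 (0.982 to 1.15).

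OIP5-AS1 (ENSG00000247556) maps to the plus strand of chromosome 15, bases 41283990 to 41309737 and overlaps OIP5, a centromere gene, on the other strand. P-Enter gave 8.27 FPKM of OIP5-AS1, WT gave 8.62 and L597R gave 9.05, with 1394, 1711 and 1905 reads behind them. The 3 intervals overlapped. The OIP5-AS1 read ratio was 1.09 in L597R against P-Enter (1.02 to 1.17), 1.04 in WT against P-Enter (0.970 to 1.12) and 1.05 in L597R against WT (0.984 to 1.12). OIP5 itself had 55, 73 and 106 reads in P-Enter, WT and L597R, a ratio of 1.54 in L597R against P-Enter (1.10 to 2.18). The strand setting of the counting is not given in the sources used here, so reads of OIP5-AS1 and OIP5 cannot be told apart with certainty where they overlap; the same holds for GAS5 and SNHG12 and the genes opposite them.

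The start windows of NORAD, TUG1 and OIP5-AS1 all held CACGTG, the E-box bound by MYC and USF proteins, and those of the 5 other genes with a window did not. It was searched over the 300 bases from 250 before to 50 after the RefSeq start, and reads the same on both strands. CACGTG was present in 7.26% of 35116 windows. That these 3 are the genes whose read ratio intervals in L597R against P-Enter lay above 1 was seen after the values were known, and a match describes letters only. It was 1 of 7 motifs searched on both strands, and the only one singled out. The AP-1 form TGANTCA was in none of these windows and in 7.71% of all windows, and the CREB form TGACGTCA was in none and in 1.85%. The ETS form CCGGAAG was in NORAD alone and in 10.3% of all windows. The CCAAT box was in 4 of the 8 genes and in 34.6% of all windows. The GC box GGGCGG was in 6 of the 8 and in 45.0%. The letters TATAA were in 4 of the 8 and in 20.4%. The whole NORAD window, chr20:36050911-36051210 on the minus strand, is shown with shorter stretches for TUG1, chr22:30969161-30969220, and OIP5-AS1, chr15:41283740-41283782, both on the plus strand. CACGTG is in capitals and begins 138, 77 and 240 bases before the RefSeq start.
NORAD: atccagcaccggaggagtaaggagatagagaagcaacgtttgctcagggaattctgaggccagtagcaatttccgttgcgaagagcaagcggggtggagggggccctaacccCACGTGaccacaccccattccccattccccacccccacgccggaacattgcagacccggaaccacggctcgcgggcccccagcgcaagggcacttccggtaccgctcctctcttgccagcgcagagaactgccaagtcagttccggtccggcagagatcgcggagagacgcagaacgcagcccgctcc
TUG1: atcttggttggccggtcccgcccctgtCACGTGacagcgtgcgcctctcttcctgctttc
OIP5-AS1: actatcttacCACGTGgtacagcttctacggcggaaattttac

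The paraspeckle scaffold NEAT1 was the gene that stood lowest in L597R relative to P-Enter. NEAT1 (ENSG00000245532) maps to the plus strand of chromosome 11, bases 65422774 to 65445540. NEAT1 stood at 4.07 FPKM in the control, 3.72 with wild-type BRAF and 3.23 with the mutant (1233, 1328 and 1222 reads). L597R was below both other libraries, and the intervals of P-Enter and WT overlapped narrowly. The NEAT1 read ratio was 0.794 in L597R against P-Enter (0.733 to 0.860), 0.914 in WT against P-Enter (0.845 to 0.988) and 0.868 in L597R against WT (0.803 to 0.939). A gene-level value does not separate the short polyadenylated NEAT1 transcript from the long one that builds paraspeckles.

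MALAT1, its neighbour on the same strand of chromosome 11 from 65497688 to 65506516 (ENSG00000251562), had a different order of libraries, with WT lowest. P-Enter gave 9.30 FPKM of MALAT1, WT gave 8.26 and L597R gave 9.30, with 1092, 1142 and 1363 reads behind them. P-Enter and L597R were level, and the WT interval lay below both. The MALAT1 read ratio was 0.887 in WT against P-Enter (0.816 to 0.965), 0.999 in L597R against P-Enter (0.922 to 1.08) and 1.13 in L597R against WT (1.04 to 1.22). RN7SL1, the RNA of the signal recognition particle, which also lacks a poly(A) tail and has near-identical copies, had 483, 305 and 556 reads, a WT to P-Enter ratio of 0.536 (0.463 to 0.620). How libraries made with a stranded mRNA kit captured RNAs without a tail was not tested, and no other structural RNA of a list of 8 passed the filter on level.

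Among the host genes, GAS5 was lower in both BRAF libraries than in P-Enter. GAS5 (ENSG00000234741), named for its accumulation in growth-arrested cells, maps to the minus strand of chromosome 1, bases 173863900 to 173868882. P-Enter gave 37.3 FPKM of GAS5, WT gave 33.8 and L597R gave 33.0, with 2399, 2566 and 2652 reads behind them. P-Enter was above both BRAF libraries, which overlapped. The GAS5 read ratio was 0.908 in WT against P-Enter (0.858 to 0.960), 0.885 in L597R against P-Enter (0.837 to 0.936) and 0.975 in L597R against WT (0.923 to 1.03). ZBTB37, which overlaps GAS5 on the other strand, went the other way in L597R, with a ratio of 1.20 (1.03 to 1.40) from 283 reads in P-Enter and 423 in L597R. GAS5-AS1, on the same strand as ZBTB37, had 11, 15 and 11 reads.

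SNHG1, the host of the SNORD22 and SNORD25 to SNORD31 group, was the steadiest of the 9 genes above the filter. SNHG1 (ENSG00000255717) maps to the minus strand of chromosome 11, bases 62851988 to 62855914, 188 bases from the divergent amino acid transporter subunit gene SLC3A2. SNHG1 stood at 38.2 FPKM in the control, 37.0 with wild-type BRAF and 37.2 with the mutant (2016, 2300 and 2453 reads). Its highest level was 1.03 times its lowest, and all 3 intervals overlapped. The SNHG1 read ratio was 0.968 in WT against P-Enter (0.912 to 1.03) and 0.974 in L597R against P-Enter (0.918 to 1.03). SLC3A2 had a ratio of 1.07 in L597R against P-Enter (1.04 to 1.11), and its interval in WT against P-Enter held 1 (0.969 to 1.03).

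SNHG12 and SNHG15 were lower in L597R than in P-Enter by a margin close to their counting error. SNHG12 (ENSG00000197989) maps to the minus strand of chromosome 1, bases 28578538 to 28583132, and TRNAU1AP overlaps it on the other strand. P-Enter gave 5.57 FPKM of SNHG12, WT gave 4.86 and L597R gave 4.69, with 316, 325 and 332 reads behind them. The SNHG12 read ratio was 0.841 in L597R against P-Enter (0.719 to 0.984) and 0.873 in WT against P-Enter, with an interval that held 1 (0.745 to 1.02). P-Enter was highest for SNHG12, but its level interval overlapped those of both BRAF libraries. SNHG15 (ENSG00000232956) maps to the minus strand of chromosome 7, bases 44983023 to 44986961. P-Enter gave 11.3 FPKM of SNHG15, WT gave 10.8 and L597R gave 10.1, with 593, 668 and 658 reads behind them. The SNHG15 read ratio was 0.888 in L597R against P-Enter (0.794 to 0.994) and 0.956 in WT against P-Enter (0.855 to 1.07). As for SNHG12, the 3 level intervals overlapped.

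SNHG5, the host of SNORD50A and SNORD50B, had the lowest listed level of the 10 genes, from few reads. SNHG5 (ENSG00000203875) maps to the minus strand of chromosome 6, bases 85660950 to 85678748. P-Enter gave 0.113 FPKM of SNHG5, WT gave 0.127 and L597R gave 0.148, with 19, 25 and 31 reads behind them. The length behind these values was 12604 bases, against 2806 bases of exons in GENCODE 29. On the GENCODE length the level would be 0.509, 0.569 and 0.665 FPKM, still the lowest of the 10. Its read ratio was 1.31 in L597R against P-Enter (0.715 to 2.45), so a change of this size was not detectable at this depth.

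Lengths bear on the order of GAS5 and SNHG1 as well. GAS5 was scaled to 4842 bases and SNHG1 to 3970, against 3631 and 3756 bases of GENCODE 29 exons. With GENCODE lengths GAS5 took the second place among the 10 and SNHG1 the third. MALAT1, NEAT1, SNHG12, TUG1 and OIP5-AS1 were scaled to the GENCODE length exactly. Ratios between libraries do not depend on the length.

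**Figure D3:**
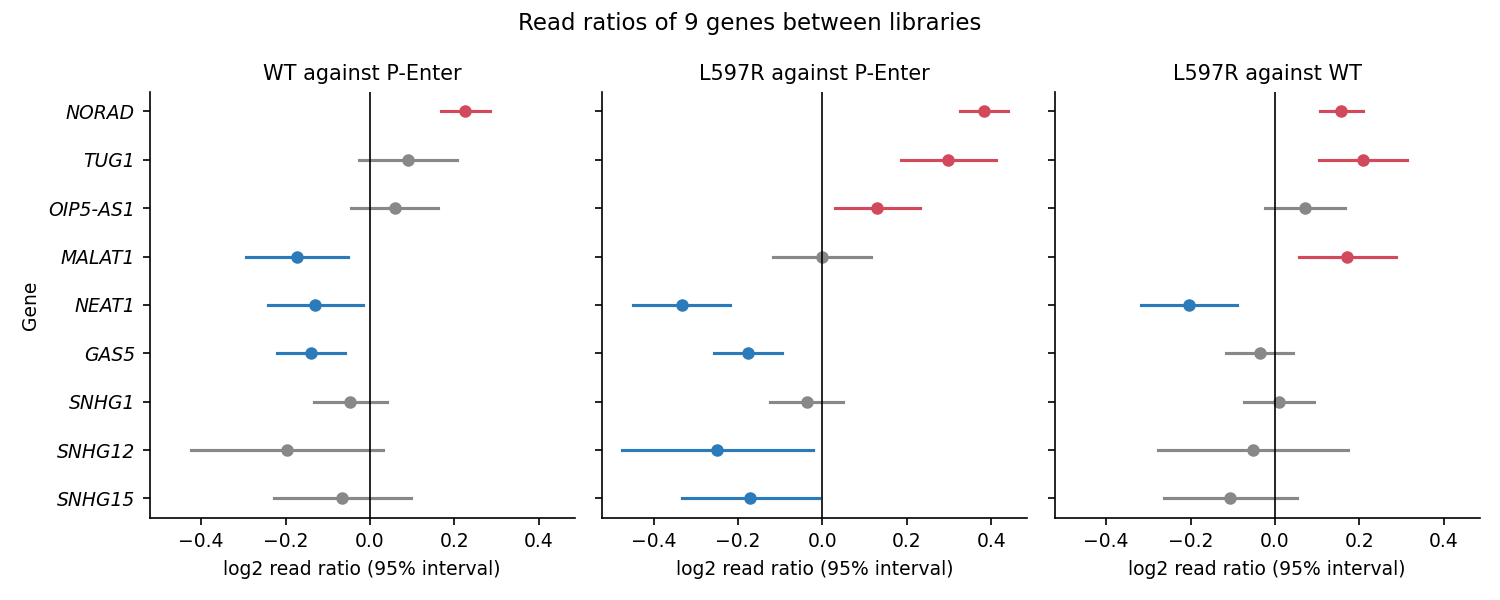
Log2 read ratio of the 9 genes above the filter in the 3 library comparisons, with exact 95% intervals; the vertical line marks equal levels. NORAD lies to the right of the line in all 3 panels and NEAT1 to the left in all 3.

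A size rule was applied to all genes with a mean of at least 1 FPKM: a difference of at least 1 in log2(FPKM + 1), a scale that understates the change of low genes. It left 10639 genes and 9 of the 10 long non-coding RNAs, SNHG5 falling out. None of the 9 passed it, where 0.978% of all genes did in WT against P-Enter, 0.808% in L597R against P-Enter and 0.724% in L597R against WT. Those shares were 104, 86 and 77 genes, most of them short: genes of at least 200 bases alone, as all 9 are, gave 28, 24 and 19. Over long non-coding RNA genes alone the shares were 1.89%, 1.26% and 1.26%. The largest difference among the 9 was that of NORAD in L597R, 0.38, at percentile 92.0 of all genes tested. The lowest was that of NEAT1 in the same comparison, -0.26, at percentile 8.37. The median difference of the 9 genes was -0.060 in WT and -0.037 in L597R against P-Enter, beside -0.00069 and -0.0082 over all genes and -0.036 and -0.038 over 475 long non-coding RNA genes. In L597R against WT it was 0.0087, beside 0.0082 and -0.021.

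The read ratio intervals excluded 1 for more of them, as they did for many genes of this depth. The shares of genes with at least 500 reads over both libraries are set beside them, first over all genes and then over long non-coding RNA genes, of which there were 66 in WT against P-Enter, 71 in L597R against P-Enter and 76 in L597R against WT. In WT against P-Enter the interval of 1 of the 9, NORAD, lay above 1, beside 17.2% and 6.06%, and those of 3, MALAT1, NEAT1 and GAS5, lay below, beside 13.4% and 12.1%. In L597R against P-Enter 3 lay above, NORAD, TUG1 and OIP5-AS1, beside 31.0% and 18.3%. NEAT1, GAS5, SNHG12 and SNHG15 lay below there, 4 of the 9, beside 28.2% and 23.9%. In L597R against WT 3 lay above, NORAD, TUG1 and MALAT1, beside 26.5% and 18.4%, and NEAT1 alone lay below, 1 of the 9, beside 19.2% and 7.89%. The counts were not tested against these shares. The comparisons with P-Enter share that library.

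Within a library, ratios between these RNAs do not depend on the library total. The pairs below put genes that stood higher in L597R than in P-Enter over genes that stood lower there. They restate the read ratios above and are no separate support, and other pairs were not measured. NORAD had 3.35 reads per NEAT1 read in P-Enter (3.14 to 3.57), 4.29 in WT (4.04 to 4.56) and 5.51 in L597R (5.18 to 5.86). The 3 intervals were apart. TUG1 per NEAT1 read was 0.879, 1.02 and 1.36 in the same order, so L597R was the library in which TUG1 stood furthest above NEAT1. NORAD per GAS5 read was 1.72, 2.22 and 2.54. NORAD alone made up 28.9%, 33.3% and 35.4% of the reads of the 10 genes.

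Differences between these libraries moved with the GC content of a gene. Over 10421 genes of at least 200 bases, the rank correlation of GC content with the difference was -0.42 in WT against P-Enter, -0.65 in L597R against P-Enter and -0.54 in L597R against WT. Over the 9 long non-coding RNAs it was -0.35, -0.75 and -0.87, and over 470 long non-coding RNA genes -0.098, -0.14 and -0.066; all points share the same libraries. In L597R against P-Enter genes under 40% GC had a median difference of 0.30, those of 40 to 50% GC, the class of 6 of the 9, a median of 0.075, and those of 50 to 60% GC a median of -0.12. NORAD at 41.6% GC, TUG1 at 41.8% and OIP5-AS1 at 42.2% were among the AT-rich genes, and SNHG12 at 52.0% and SNHG15 at 53.1% were the most GC-rich. MALAT1 at 39.6% GC had a difference of -0.00083 in L597R against P-Enter, below the median of its GC class.

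After a regression on GC content, length and level, which removed 38.4% of the variance in L597R against P-Enter, the difference of NORAD went from 0.38 to a residual of 0.21, at percentile 90.7. TUG1 went from 0.27 to 0.083, and OIP5-AS1 turned from 0.12 to -0.063. The lowest residuals were those of NEAT1 at -0.36, GAS5 at -0.29 and MALAT1 at -0.25, with NEAT1 at percentile 2.61 and MALAT1 at percentile 5.71 of all genes. The fit was over all 10421 genes, while the correlation with GC content over 470 long non-coding RNA genes was only -0.14 there. The residual of MALAT1 came from its fitted value of 0.25, since its difference was -0.00083. In WT against P-Enter, where 11.9% of the variance was removed, the residual was 0.16 for NORAD, -0.25 for MALAT1, -0.18 for GAS5 and -0.17 for NEAT1. In L597R against WT the genes with intervals above 1 moved toward 0: MALAT1 from 0.15 to 0.0027, NORAD from 0.15 to 0.051 and TUG1 from 0.19 to 0.080. NEAT1 went there from -0.16 to a residual of -0.19. The median residual of the 9 genes was -0.074 in WT and -0.13 in L597R against P-Enter, and it was -0.035 in L597R against WT, where the median difference had been above 0. The part of GC content in each difference was not tested further.

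**Figure D4:**
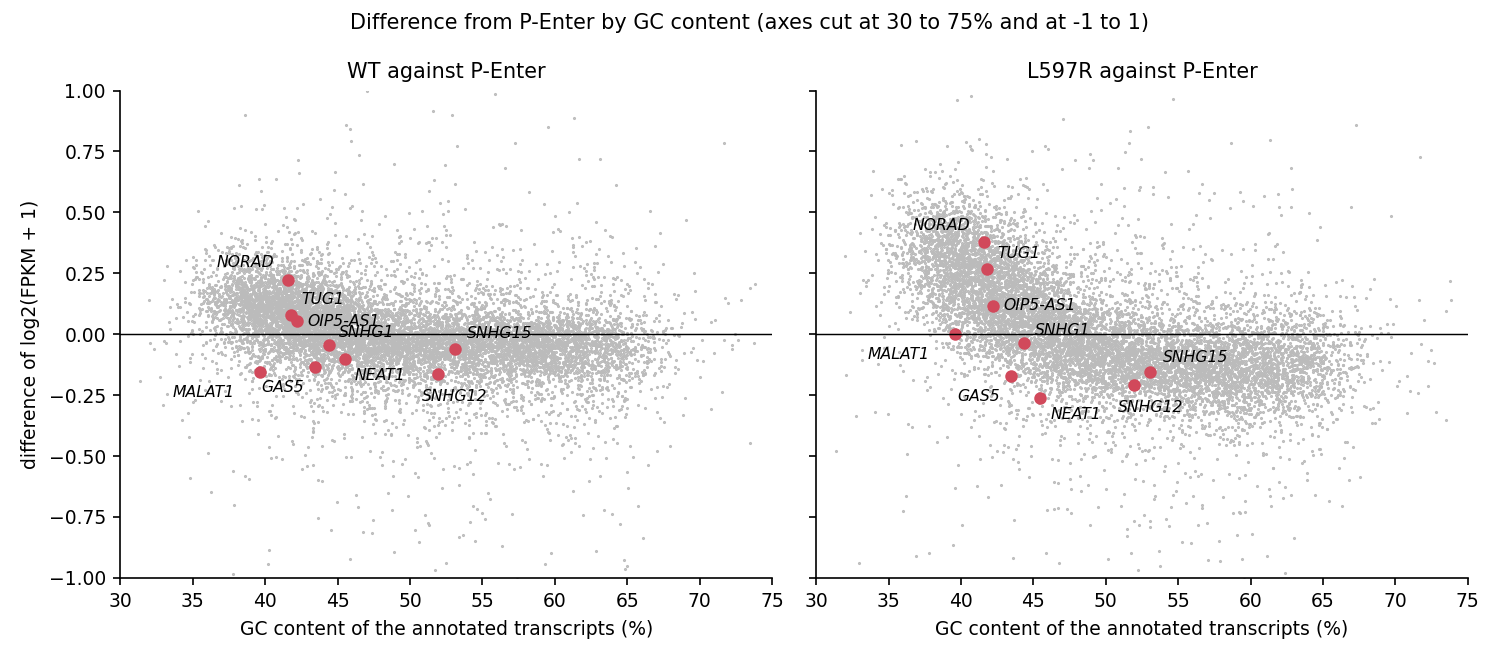
Difference of log2(FPKM + 1) from P-Enter against GC content in percent, for WT and L597R; grey points are 10421 genes of at least 200 bases and coloured points the 9 long non-coding RNAs, with 30 genes of the WT panel and 27 of the L597R panel outside the axes. In L597R the cloud slopes down with GC content, and NEAT1, GAS5 and MALAT1 lie toward its lower edge at their GC content.

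Few snoRNA genes of these introns could be followed. GENCODE 29 places 14 snoRNA genes inside SNHG1, SNHG5, SNHG12 and SNHG15, and 1 of them, SNORD99 in SNHG12, was listed, with 3, 0 and 2 reads in P-Enter, WT and L597R. A count of 0 allows up to 3 reads, so nothing is read from the order of its libraries. RefSeq places 27 snoRNA genes in the same hosts and GAS5, 11 of them in GAS5; those with no GENCODE 29 entry were not analysed here. SNORD99 is a box C/D snoRNA at chr1:28578749-28578822 on the minus strand of GRCh38. It is shown with GATGA of its C box and CTGA of its D box in capitals, and beside it SNORA9 of SNHG15, chr7:44985378-44985510 on the minus strand, a snoRNA of the other class, with its H box and ACA box in capitals.
SNORD99: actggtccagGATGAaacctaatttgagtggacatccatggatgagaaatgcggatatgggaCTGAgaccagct
SNORA9: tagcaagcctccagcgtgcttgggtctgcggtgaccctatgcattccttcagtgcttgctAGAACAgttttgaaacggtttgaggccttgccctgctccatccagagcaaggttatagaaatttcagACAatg

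Other genes of the same kinds were measured from 10 companion lists. Of 17 other non-coding snoRNA hosts above the filter none passed the size rule, and their median was -0.052 in WT and -0.036 in L597R against P-Enter. The most abundant, SNHG6, was at 45.4, 40.1 and 46.0 FPKM, in the order P-Enter, WT and L597R that is kept below. Of 23 protein-coding snoRNA hosts 1 passed, EEF1B2, a subunit of a translation elongation factor, at 40.3, 35.7 and 18.1 FPKM, a difference of -1.11 in L597R against P-Enter. In L597R against P-Enter the intervals lay below 1 for 18 of these 23 and above 1 for 3, beside 23.9% and 25.5% of all genes tested. Among genes with at least 500 reads over both libraries 28.2% lay below and 31.0% above. EEF2, the elongation factor at the top of that list, was at 1081, 1083 and 987 FPKM, from 57788, 68239 and 65913 reads. Intervals narrow as reads rise, and neither set of shares was matched to these hosts in reads, so the 18 are not read as a trait of the list. Of 6 other long non-coding RNAs none passed, with a median of 0.13 in L597R, and the most abundant, FGD5-AS1, was at 27.3 to 28.7 FPKM. In L597R against P-Enter 3 of these 6 intervals lay above 1 and 0 below, beside the same 25.5% and 23.9%. THAP9-AS1 had a ratio of 1.30 there (1.15 to 1.48), beside 1.30 for NORAD, so a ratio of that size was not particular to NORAD.

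The genes of proteins that work with these RNAs, measured here as RNA and not as protein, did not pass the size rule either. The median of 8 paraspeckle proteins was -0.11 in L597R against P-Enter, and 5 of their intervals lay below 1 and 1 above, beside 23.9% and 25.5% of all genes tested. Among genes with at least 500 reads over both libraries those shares were 28.2% and 31.0%. HNRNPK, the gene with the highest RNA level of the paraspeckle list, was at 188, 186 and 189 FPKM. The 10 nuclear speckle proteins had a median of 0.012, led in level by SRRM2 at 72.6, 73.4 and 68.8 FPKM. The 14 core and assembly proteins of snoRNA particles had a median of -0.074, led by NOP10 at 428, 408 and 432 FPKM.

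Nonsense-mediated decay, which clears the spliced RNA of hosts such as GAS5, was followed through 14 factors and 12 of its known targets. The factors had a median of -0.053 in L597R against P-Enter, with 4 intervals above 1 and 5 below, and the targets a median of 0.0013, with 2 above and 4 below, beside 25.5% of all genes above and 23.9% below. Among genes with at least 500 reads over both libraries 31.0% lay above and 28.2% below. SMG5, the factor gene with the highest RNA level, was at 64.6, 65.9 and 59.5 FPKM. RPL10A, the most abundant target, was at 489, 452 and 432 FPKM. The genes of 10 proteins known to bind these long non-coding RNAs had a median of 0.087, led in RNA level by KHDRBS1 at 92.3, 88.8 and 96.9 FPKM. Of their intervals 6 lay above 1 and 1 below, beside the same 25.5% and 23.9%. No list is called particular from these counts, and the shares beside them were not matched to the lists in reads.

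**Figure D5:**
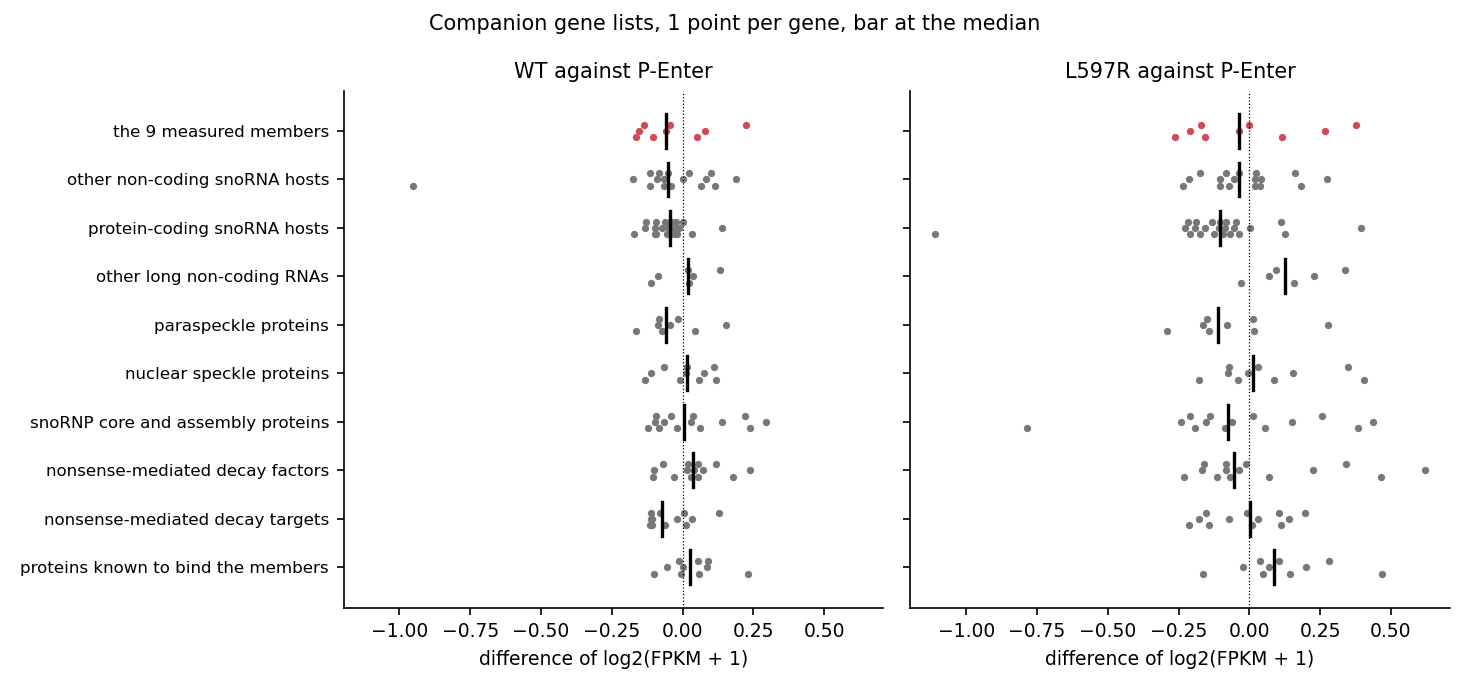
Difference of log2(FPKM + 1) from P-Enter for the companion list genes above the filter and the 9 long non-coding RNAs, 1 point per gene with a bar at the list's median. EEF1B2 at -1.11 in L597R is the gene beyond the size rule. The structural list is not drawn, since it holds only 1 gene above the filter, RN7SL1, at -0.89 in WT and -0.12 in L597R.

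The long non-coding RNAs most like MALAT1, NEAT1 and GAS5 were sought among 71 with a mean of at least 5 FPKM, as the nearest in the pair of differences from P-Enter over 3 libraries. Nearest to MALAT1 were RGMB-AS1 at a distance of 0.014, SNHG6 at 0.028 and LINC02901 at 0.057 on the log2 scale. NEAT1 had ENSG00000269958, ARRDC1-AS1 and VPS9D1-AS1 as its nearest, at 0.033 to 0.078. GAS5 had VPS9D1-AS1, SFTA1P and SNHG4, at 0.022 to 0.045. VPS9D1-AS1 was near both NEAT1 and GAS5, at 11.4, 10.2 and 9.83 FPKM.

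Protein-coding neighbours were measured to see what lay beside each gene, and none of those listed passed the size rule. FRMD8, 9249 bases from NEAT1, was at 26.9, 23.5 and 21.0 FPKM, the same order of libraries as NEAT1. MORC2, 947 bases from TUG1 on the other strand, had ratios of 1.07 in WT and 0.967 in L597R against P-Enter, so it did not share the order of TUG1. TRNAU1AP, opposite SNHG12, had ratios of 0.978 and 0.971 in the same comparisons.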

How the data were processed

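RNA of 3 DU145 libraries, 1 per group, was sequenced from stranded mRNA libraries, per the labels' protocols. The submitters' processing notes name the build GRCh38 (hg38) and the tools Trimmomatic, HISAT2, HTSeq and Cufflinks; versions, annotation release and strand setting are not given in the sources used here. The values the authors deposited are FPKM for each Ensembl gene, as the file headers name them. Symbols came from a gene name table (23330 of 23379 identifiers matched) and positions from GENCODE 29 (22807 matched).

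Library totals and gene lengths that give whole reads in all 3 libraries were searched for, within a tolerance of 1e-05, and reads were recovered for 23378 genes. Of these, 47.5% had the exact GENCODE 29 exon length and 87.3% lay within 10% of it, and their sum was 100.3% of each total, for a reason that was not tested. No count model was fitted, since 1 library per group allows none. The size rule used a pseudocount of 1, a mean of at least 1 FPKM and a threshold of 1 on the log2 scale. The scripts were tested on simulated data. Read intervals treat polymerase chain reaction copies as independent and so cover counting error only.

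The members and the 10 lists with 148 entries were chosen with earlier results of these data known. Named were all 10 members, the most abundant gene of each list, up to 4 list genes past the size rule, genes overlapping a member and the 3 nearest in pattern to MALAT1, NEAT1 and GAS5. EIF4A1, PUM2, SNORA9, FRMD8, SLC3A2, MORC2 and THAP9-AS1 were chosen after their values were seen. Sequences came from GENCODE 29 transcripts and from RefSeq tables (promoter windows on GRCh38.p14). Alternatives were other pseudocounts, filters, thresholds and scalings, recovered reads and a regression. Scripts ran in Python 3.11.15; tables were handled in pandas 2.3.3 and numpy 2.4.6, intervals came from scipy 1.17.1 and plots from matplotlib 3.10.9.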

Additional observations from a re-analysis of the deposited data

How the results depend on the processing

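None of the 9 long non-coding RNAs above the filter passed the size rule under any alternative that could be run, and their median difference was negative under every one in WT and in L597R against P-Enter, between -0.13 and -0.018 in L597R. In L597R against WT it was between 0.0079 and 0.036, except for -0.035 in the regression. The number of all genes past the rule, 104 in WT against P-Enter, 86 in L597R against P-Enter and 77 in L597R against WT, depended on the settings. In the same order it was 191, 203 and 189 with a pseudocount of 0.1, and 2, 7 and 3 with a pseudocount of 5. It was 267, 246 and 214 without a filter, and 9, 13 and 8 with a mean of at least 5 FPKM. A threshold of 1.5-fold gave 233, 322 and 237, and genes of at least 200 bases gave 28, 24 and 19. Residuals of the regression gave 28, 23 and 21, and recovered reads with an interval beyond 1.5-fold gave 34, 53 and 38. The regression turned OIP5-AS1 to -0.063 in L597R against P-Enter and moved TUG1 to 0.083 and NORAD to 0.21 there. It also moved MALAT1 there from -0.00083 to -0.25, GAS5 from -0.17 to -0.29 and SNHG1 from -0.037 to -0.13. In L597R against WT it moved MALAT1 to 0.0027, NORAD to 0.051, TUG1 to 0.080 and OIP5-AS1 from 0.064 to -0.035. In WT against P-Enter it moved NORAD to 0.16. The pseudocount of 5 moved NEAT1 to -0.14 in L597R against P-Enter. The cause of these moves was not tested. The GENCODE lengths that exchanged GAS5 and SNHG1 were tried after seeing the data. No paired analysis was possible because each group holds 1 library, and for the same reason no library could be left out. Depth limits SNHG5 most, with 19 to 31 reads a library.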

Other observations

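Among genes of the companion lists that the text has not described, some stood further from P-Enter than any of the long non-coding RNAs; they were picked after their values were seen. FBL, the methyltransferase of box C/D snoRNA particles, was at 35.6, 39.3 and 20.2 FPKM in P-Enter, WT and L597R, a read ratio of 0.569 in L597R against P-Enter (0.516 to 0.626). NOP58, a core protein of the same particles, was at 35.5, 41.6 and 48.4 FPKM, a ratio of 1.36 (1.28 to 1.45). The genes of these 2 proteins stood on opposite sides of P-Enter in L597R. FBL has a GC content of 56.4% and NOP58 one of 42.1%, and the part of GC content in the difference between them was not tested.

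UPF3B, a factor that links nonsense-mediated decay to the exon junction, was at 6.96, 8.39 and 11.2 FPKM in the same order, a ratio of 1.62 in L597R against P-Enter (1.40 to 1.87). UPF2, its partner, was at 8.67, 9.50 and 12.4 FPKM, a ratio of 1.42 (1.30 to 1.57). Both are AT-rich, at 42.1% and 41.5% GC. SNHG9, a host with few reads, had 20, 8 and 26, again in that order.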
